A study of Mus musculus with 12 samples.

Results

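The T-box genes Tbx1, Tbx2, Tbx3, Tbx4, Tbx5, Tbx6, Tbx15, Tbx18 and Tbx20 were followed across 4 genotypes of mouse embryonic stem (ES) cells. The members were taken by name: every probe set to which the platform annotation gave 1 of these 9 gene symbols was used, 19 probe sets of the 34945 that carried a single symbol. These stood for 9 of 18193 named genes. RNA from 12 Affymetrix Mouse 430_2.0 arrays was compared, with 3 biological replicates of each genotype. The genotypes were wild type, Ring1B deficient and Eed deficient, each mutant made by gene targeting, and double deficient, made by targeting Ring1B in the Eed deficient cells. The double deficient cells therefore carry the same Eed mutation as the Eed deficient cells. All 4 genotypes were ES cells described as undifferentiated by colony shape, and no second line of a genotype is described. The p-values below therefore measure the spread between arrays of a line, and any difference between lines is part of each comparison.

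T-box proteins are transcription factors that bind DNA through a shared domain and act as activators or repressors while tissues form. Different members pattern the heart, limbs, somites, pharyngeal arches, skeleton and urogenital mesenchyme, and Tbx3 is also active in the network that maintains mouse ES cells. Rnf2 encodes Ring1B, the enzyme with which the Polycomb complex PRC1 ubiquitinates histone H2A. Eed holds together PRC2, which methylates histone H3, and many developmental regulators are kept silent in ES cells by these complexes.

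The RefSeq promoter table (GRCm38.p6) held windows for 5 of the 9 members, Tbx1, Tbx4, Tbx6, Tbx18 and Tbx20. The stretch of 250 bases before the transcription start is shown for Tbx18 and Tbx20, which rose in every mutant, and for Tbx6, which was not called in any. The capitals mark CG dinucleotides, since CG-rich promoters are a common place of Polycomb binding. The arrays hold no measurement of Polycomb or chromatin at these sites.
Tbx18 (chr9:87731261-87731510, minus strand): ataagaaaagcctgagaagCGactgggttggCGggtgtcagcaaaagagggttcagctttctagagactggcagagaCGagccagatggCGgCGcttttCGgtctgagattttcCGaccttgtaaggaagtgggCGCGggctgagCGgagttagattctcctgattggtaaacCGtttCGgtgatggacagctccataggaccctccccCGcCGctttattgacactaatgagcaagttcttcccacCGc
Tbx20 (chr9:24774304-24774553, minus strand): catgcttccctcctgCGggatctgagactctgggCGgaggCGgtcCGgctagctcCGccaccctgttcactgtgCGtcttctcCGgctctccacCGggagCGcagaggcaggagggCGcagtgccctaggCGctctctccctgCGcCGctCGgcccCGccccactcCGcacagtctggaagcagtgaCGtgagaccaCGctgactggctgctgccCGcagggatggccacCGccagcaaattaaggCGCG
Tbx6 (chr7:126781233-126781482, plus strand): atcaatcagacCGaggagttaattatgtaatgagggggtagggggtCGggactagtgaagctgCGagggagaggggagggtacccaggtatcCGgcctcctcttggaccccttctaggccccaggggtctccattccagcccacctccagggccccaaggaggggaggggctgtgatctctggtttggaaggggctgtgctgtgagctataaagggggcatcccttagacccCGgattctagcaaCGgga
The Tbx20 window held 22 CG dinucleotides, the Tbx18 window 15 and the Tbx6 window 6. Windows not printed held 10 (Tbx1, outside its own gene), 17 (Tbx1, inside its own gene) and 6 (Tbx4, inside its own gene). Tbx1 also rose in every mutant and Tbx4 was not called in any. Among all 32851 windows of the table the median was 6, with quartiles of 2 and 16. At least as many CG as in the Tbx20 window were found in 14.8% of all windows, at least as many as in the Tbx18 window in 27.3%, and at least as many as in the Tbx6 window in 50.4%. For Tbx1 these shares were 37.8% outside and 23.5% inside its gene, and for Tbx4 50.4%. The core of the T-box binding motif, AGGTGTGA on either strand, was in 0 of the 6 windows of members and in 1.12% of all windows.

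The arrays had been scaled to a trimmed mean of 100, and their medians ran from 19.07 to 28.01. The number of arrays limits the precision. Signals are given below as MAS5 signal per array or as mean ± SD with n = 3, and signals of different probe sets are not comparable as levels. The Eed signal averaged 1428 ± 159 (wild type), 1642 ± 283 (Ring1B deficient), 37.8 ± 13.1 (Eed deficient) and 71.2 ± 21 (double deficient). The Rnf2 signal was 851 ± 124, 468 ± 65.7, 779 ± 168 and 383 ± 18.8 in the same order. Both targeted genes were thus lowest in the genotypes labelled deficient for them, with Rnf2 transcript still above background there. Summed signals of 10 ES cell markers, Pou5f1 and Nanog among them, ran from 21638 to 22468 in wild type cells. They ran from 19054 to 21937 in Ring1B deficient, 17659 to 20273 in Eed deficient and 15369 to 17323 in double deficient cells. In this order of mutants, 0, 1 and 7 of the 10 were called lower by limma and 0, 0 and 1 higher. Of all genes tested 2.5%, 4.56% and 11.4% were called lower and 4.68%, 10.8% and 19.5% higher.

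Tbx1, Tbx3, Tbx15, Tbx18 and Tbx20 were higher than wild type in each of the 3 mutants, and no member was called lower. The 3 arrays of the mutant lay above the 3 wild type arrays for each of the 5, as for 11.9%, 18.6% and 27.8% of the genes tested in Ring1B deficient, Eed deficient and double deficient cells. All 9 members were also tested without a filter on low signals. There the same 5 were called higher in every mutant by limma with Benjamini-Hochberg adjustment, at an adjusted p under 0.05. Brightness was judged with the mutant arrays included, so this fit does not remove selection through the mutants. For Tbx20 the tested 1453351_at averaged 5.87 in wild type cells, where 1425158_at averaged 12.1. Probe set 1425158_at was called on loss of both (limma adjusted p = 0.014), not of Ring1B (0.95) or Eed (0.18). Without the filter, 3.23% of all genes were called higher on loss of Ring1B, 7.48% on loss of Eed and 15.1% on loss of both. Tbx2, Tbx4, Tbx5 and Tbx6 were not called in any mutant. In a bulk sample, fewer cells of a type and less RNA per cell cannot be told apart.

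**Figure D1:**
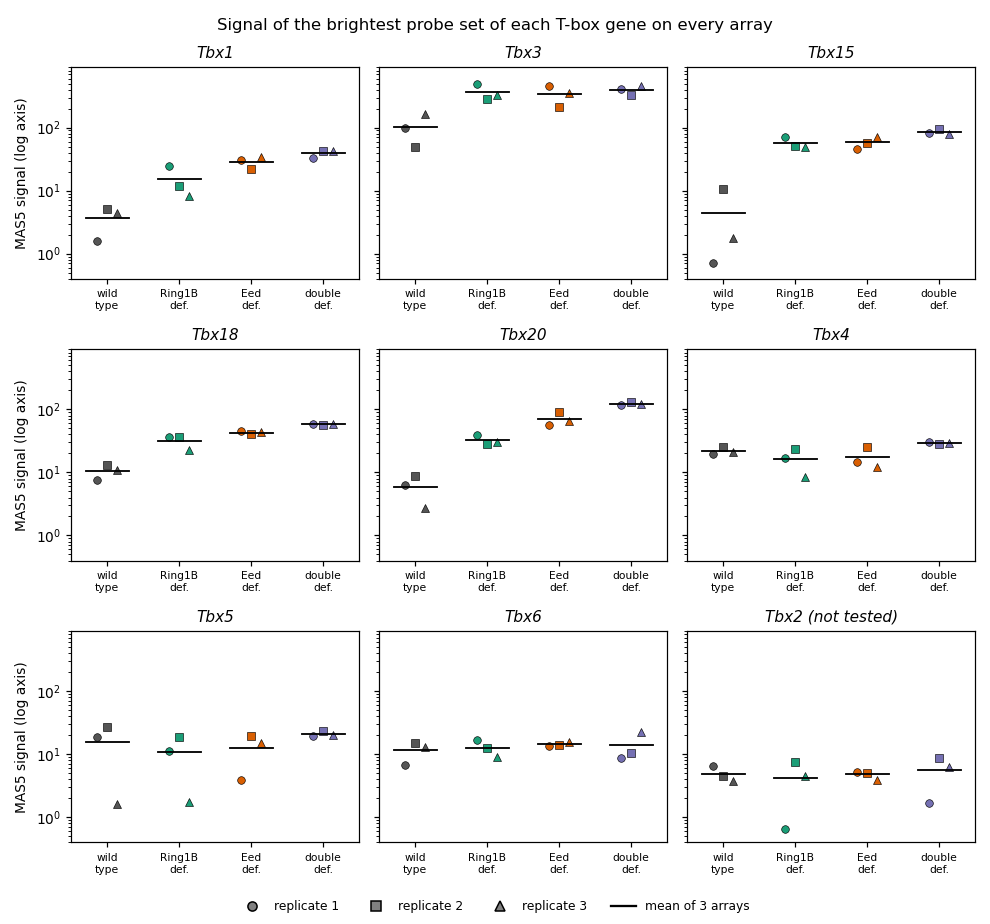
MAS5 signal (log axis) of the brightest probe set of each of the 9 T-box genes on every array, by genotype; symbols mark the replicates and lines the mean of 3 arrays. Every mutant array lies above every wild type array for Tbx1, Tbx3, Tbx15, Tbx18 and Tbx20, while each mutant overlaps wild type for Tbx2, Tbx5 and Tbx6.

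The values below come from the fit in which a probe set had to exceed its array's own 40th percentile on at least 3 of 12 arrays. That percentile lay between 12.1 and 19.1. Of the 19 probe sets 14 passed, and 8 members were tested, each by its brightest probe set. For 4 of the 8 (Tbx1, Tbx15, Tbx18 and Tbx20) no wild type array exceeded the percentile, so these passed through the mutants alone and their number among the tested members is not evidence of a rise. Among the 13984 genes tested, 4.68% were called higher on loss of Ring1B, 10.8% on loss of Eed and 19.5% on loss of both. Called lower were 2.5%, 4.56% and 11.4%. The median change of all genes was 0.105 on the log2 scale between double deficient and wild type cells. Changes are given as log2 of (signal + 5), which understates those of genes near the background.

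Tbx20, a regulator of heart chamber and valve formation, had signals of 6.22, 8.67 and 2.73 on the wild type arrays and 39.3, 28.5 and 30.5 on the Ring1B deficient arrays. The Eed deficient arrays gave 56, 92.2 and 65.8, and the double deficient arrays 118, 133 and 122. The 4 genotypes did not overlap, and the order ran from wild type through Ring1B deficient and Eed deficient to double deficient. Of all genes tested, 13.9% had every Eed deficient array above every Ring1B deficient array. For 15.4% every double deficient array lay above every Eed deficient array. The share with all 4 genotypes apart was not counted. The log2 change against wild type was 1.82 ± 0.23 (SE) in Ring1B deficient cells (limma adjusted p = 3e-04), 2.82 ± 0.23 in Eed deficient cells (4.3e-06) and 3.61 ± 0.23 in double deficient cells (1.9e-07).

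Tbx15 acts in the developing skeleton and skin mesenchyme. Its signals were 0.709, 10.6 and 1.8 in wild type cells, all below the arrays' 40th percentile. They were 70.8, 50.7 and 49.5 in Ring1B deficient cells, 45.9, 57.7 and 72.1 in Eed deficient cells and 81.7, 95.5 and 78.5 in double deficient cells. The single mutants overlapped with each other, and the double deficient arrays all lay above them. Of all genes tested, 15.4% had every double deficient array above every Eed deficient array. The share against the Ring1B deficient arrays is not given here. The log2 change was 2.86 ± 0.31 (SE; limma adjusted p = 8.6e-05) on loss of Ring1B, 2.89 ± 0.31 (4.2e-05) on loss of Eed and 3.41 ± 0.31 (4.5e-06) on loss of both.

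Tbx18 marks the sinus horns of the heart, ureter mesenchyme and the front part of each somite. On the wild type arrays it gave 7.63, 13.1 and 11.1, on the Ring1B deficient arrays 36.4, 36.1 and 22.3, on the Eed deficient arrays 45, 40.8 and 43.2, and on the double deficient arrays 59.1, 56.1 and 59.3. As with Tbx20, no genotype overlapped another and the order was the same, a pattern whose share over all genes was not counted. The log2 change was 1.22 ± 0.20 (SE; limma adjusted p = 0.0024), 1.64 ± 0.20 (0.00014) and 2.03 ± 0.20 (9.6e-06) in Ring1B deficient, Eed deficient and double deficient cells.

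Tbx1 is required for pharyngeal arch arteries and the cardiac outflow tract. Its wild type signals were 1.6, 5.11 and 4.41, all below the arrays' 40th percentile. The Ring1B deficient arrays gave 25, 11.8 and 8.35, a wide spread in which the highest array was replicate 1. Signals were 31, 21.7 and 33.9 in Eed deficient and 32.6, 42.6 and 43.2 in double deficient cells. Every mutant array exceeded every wild type array, and the Ring1B deficient and Eed deficient arrays overlapped. The log2 change was 1.97 ± 0.30 (SE; limma adjusted p = 0.00071) in Eed deficient cells and 2.37 ± 0.30 (7.1e-05) in double deficient cells. In Ring1B deficient cells it was 1.14 ± 0.30 (adjusted p = 0.035). That call was lost without any 1 of 5 arrays: wild type replicate 1 (0.12) or 3 (0.0671), Ring1B deficient replicate 1 (0.122) or 2 (0.0629), or double deficient replicate 3 (0.0504).

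Tbx3, a repressor with roles in limb, heart conduction tissue and ES cell self-renewal, was the only one of the 5 that exceeded the 40th percentile on all 3 wild type arrays. Its signals were 97.4, 48.8 and 164 in wild type, 496, 279.5 and 324 in Ring1B deficient, 454, 213 and 358 in Eed deficient and 411, 324 and 462 in double deficient cells. The mutants overlapped one another, and the arrays numbered 2 were the lowest of each genotype. The log2 change was 1.88 ± 0.36 (SE; limma adjusted p = 0.0069), 1.76 ± 0.36 (0.0055) and 2.03 ± 0.36 (0.001) in Ring1B deficient, Eed deficient and double deficient cells. Without the arrays numbered 2, a setting chosen after seeing these values, 4 members were called higher in Ring1B deficient cells, Tbx1 being lost, and 5 in each of the other mutants.

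Tbx4, the hindlimb counterpart of the forelimb regulator Tbx5, gave 19.8, 25 and 21.2 in wild type and 30.7, 28.3 and 29.1 in double deficient cells. The 3 double deficient arrays lay above the 3 wild type arrays, as they did for 27.8% of all genes tested. The log2 change of 0.35 had a 95% interval from -0.25 to 0.95 (limma adjusted p = 0.36). In Ring1B deficient cells the signals were 16.8, 23.4 and 8.33, and in Eed deficient cells 14.5, 25.2 and 12.4, both overlapping wild type.

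Tbx5, which directs forelimb outgrowth and atrial and septal development, varied from 1.64 to 27.2 within wild type. Its other genotypes ran from 1.72 to 19, from 3.93 to 19.4 and from 19.3 to 23.3 in the order Ring1B deficient, Eed deficient and double deficient. The log2 changes were -0.31, -0.07 and 0.59, and the interval of the last ran from -0.64 to 1.82, so a rise of the size seen for Tbx1 in Ring1B deficient cells lay within the error.

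Tbx6, a regulator of presomitic mesoderm, averaged 11.6 ± 4.27 in wild type cells, 12.8 ± 3.77 on loss of Ring1B, 14.4 ± 1.22 on loss of Eed and 13.9 ± 7.49 on loss of both. All genotypes overlapped. The intervals of its 3 changes against wild type reached 0.77, 0.91 and 0.81 on the log2 scale, below the estimated change of each of the 5 called members. Those estimates have errors too: in Ring1B deficient cells the Tbx6 interval overlapped that of Tbx1, from 0.50 to 1.79.

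Tbx2, a repressor related to Tbx3, stayed below the filter on every genotype. Its mean signal was 4.89 in wild type cells, 4.25 on loss of Ring1B, 4.78 on loss of Eed and 5.55 on loss of both. Tested without the filter, its log2 changes were -0.16, -0.01 and 0.04, with adjusted p of 0.87, 0.99 and 0.94 (limma). A signal this near the floor of the array gives no ground to say that the transcript was absent or that it did not change.

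**Figure D2:**
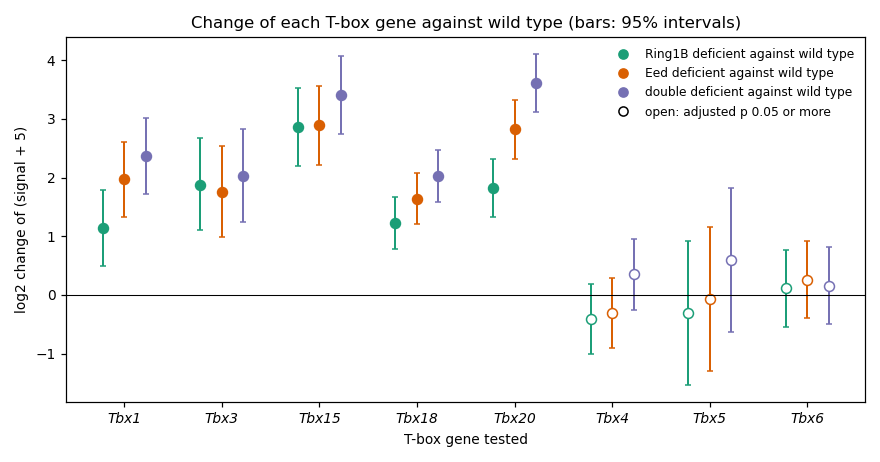
Log2 change of (signal + 5) against wild type for the 8 tested T-box genes, with 95% intervals; filled points had a limma adjusted p under 0.05. Tbx1, Tbx3, Tbx15, Tbx18 and Tbx20 are filled in all 3 mutants, from 1.14 to 3.61, and Tbx4, Tbx5 and Tbx6 in none.

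The mutants were then compared with one another. Against Ring1B deficient cells, double deficient cells had higher Tbx20 (log2 change 1.78 ± 0.23, SE; limma adjusted p = 0.00033), Tbx1 (1.23 ± 0.30; 0.013) and Tbx18 (0.81 ± 0.20; 0.015), 3 members in all beside 12.7% of genes called higher. Without Ring1B deficient replicate 3 or double deficient replicate 3 only Tbx20 was left: the adjusted p of Tbx1 became 0.063 and 0.055 and that of Tbx18 0.066 and 0.053. With every array centred on its median Tbx18 also missed the threshold (0.055). Among the dimmer probe sets, 1449871_at of Tbx18 was 0.43 higher and not called (limma adjusted p = 0.37). Probe set 1425158_at of Tbx20 was called, at 0.86 (0.017). Tbx3 and Tbx15 were not called, with intervals from -0.64 to 0.93 and from -0.12 to 1.22. Tbx4 was 0.77 higher, with an interval from 0.16 to 1.37 (adjusted p = 0.072), and was called with the replicate block (0.027), without the arrays numbered 2 (0.0429) and without Ring1B deficient replicate 2 (0.0346). The median of all genes moved by 0.114 in this comparison, and with arrays centred on their medians 6.89% of genes were called higher and 15.9% lower.

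Between Eed deficient and Ring1B deficient cells, Tbx20 was the only member called, higher in Eed deficient cells by 1.00 ± 0.23 (SE; limma adjusted p = 0.028), beside 3.37% of genes. Every Eed deficient array lay above every Ring1B deficient array for Tbx18 as well, as for 13.9% of genes, at an adjusted p of 0.3. The Tbx20 probe set 1425158_at was 0.53 higher in Eed deficient cells and not called (limma adjusted p = 0.24). The Tbx20 call was lost in 8 of 23 alternative settings, among them leaving out replicate 2 (0.0798) or 3 (0.113) of the Ring1B deficient arrays, or replicate 2 (0.0989) or 3 (0.0813) of the Eed deficient arrays.

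Between double deficient and Eed deficient cells 0 members were called by limma, beside 1.07% of genes called higher, and 2 had an unadjusted p under 0.05. These were Tbx20, at 0.79 with an interval from 0.29 to 1.28 (adjusted p = 0.098), and Tbx4, at 0.66 with an interval from 0.06 to 1.26 (adjusted p = 0.24). For Tbx4, Tbx15, Tbx18 and Tbx20 all 3 double deficient arrays lay above all 3 Eed deficient arrays, as for 15.4% of genes.

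The interaction compares the change on loss of Ring1B in Eed deficient cells with that in wild type cells. It was called for Tbx15 alone, at -2.34 ± 0.44 on the log2 scale (SE; limma adjusted p = 0.016), beside 1.19% of genes called in that direction. Tbx15 was 2.86 higher in Ring1B deficient than in wild type cells, while the difference between Eed deficient and double deficient cells was 0.52 (interval -0.15 to 1.19). Without double deficient replicate 3 the call was lost (-2.28, adjusted p = 0.0615). For Tbx3 the interaction was -1.61 (0.13), for Tbx20 -1.04 (0.13), for Tbx18 -0.82 (0.17) and for Tbx1 -0.74 (0.4). These 5 values have the same sign on the log2 scale. The 5 genes are those called higher on loss of Ring1B, a change that the interaction subtracts. Their shared sign is therefore no evidence of a common pattern. Only the value of Tbx15 passed the threshold in the fit without a replicate block. With the replicate number as a block 3 passed, Tbx3 and Tbx20 besides Tbx15. The dimmer Tbx15 probe set 1422195_s_at had an interaction of -0.69 (limma adjusted p = 0.46) and the Tbx20 probe set 1425158_at one of 0.38 (0.61).

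Several members were measured by more than 1 probe set. The probe sets did not always move alike. Of the 14 that passed the filter, 8 were called higher on loss of Ring1B, 9 on loss of Eed and 10 on loss of both. The shares of 30027 probe sets were 2.91%, 7.49% and 15.2%. For 7 of the 14 no wild type array exceeded the percentile, among them both probe sets of Tbx15 and of Tbx18. These passed through the mutants alone, so the counts are not evidence of a rise. Tbx3 had 3 probe sets that rose in every mutant: besides 1448029_at, 1437479_x_at changed by 2.03, 1.93 and 2.24, and 1445757_at by 2.03, 1.97 and 1.6. Of its other probe sets, 1439567_at was not called and 1444594_at averaged between 1.11 and 1.5 in every genotype. Both Tbx15 probe sets rose, the dimmer 1422195_s_at by 1.19, 1.08 and 1.57. The dimmer Tbx18 probe set 1449871_at changed by 0.92 in Ring1B deficient cells (limma adjusted p = 0.11), and rose by 1.00 (0.045) and 1.34 (0.0049) in the Eed deficient and double deficient genotypes. Probe sets 1426321_at of Tbx4 and 1425694_at of Tbx5 did not pass the filter. Their genotype means ran from 8.42 to 11.8 and from 2.24 to 3.83.

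The probe sets of Tbx20 also differed. Probe set 1425158_at averaged 12.1 ± 1.96 in wild type cells, 11.6 ± 2.7 on loss of Ring1B, 18.7 ± 0.703 on loss of Eed and 25.1 ± 4.62 on loss of both. Its log2 change was -0.05 in Ring1B deficient cells (limma adjusted p = 0.95), 0.48 in Eed deficient cells (0.18) and 0.81 in double deficient cells (0.014). A further probe set, 1422219_a_at, did not pass the filter and averaged 4.24, 4.77, 11.9 and 12.3 in the same order. The Ring1B and Eed calls for Tbx20 therefore rest on 1453351_at, which was the brightest of its probe sets in the mutants but not in wild type cells. Which transcripts the probe sets detect was not analysed here.

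**Figure D3:**
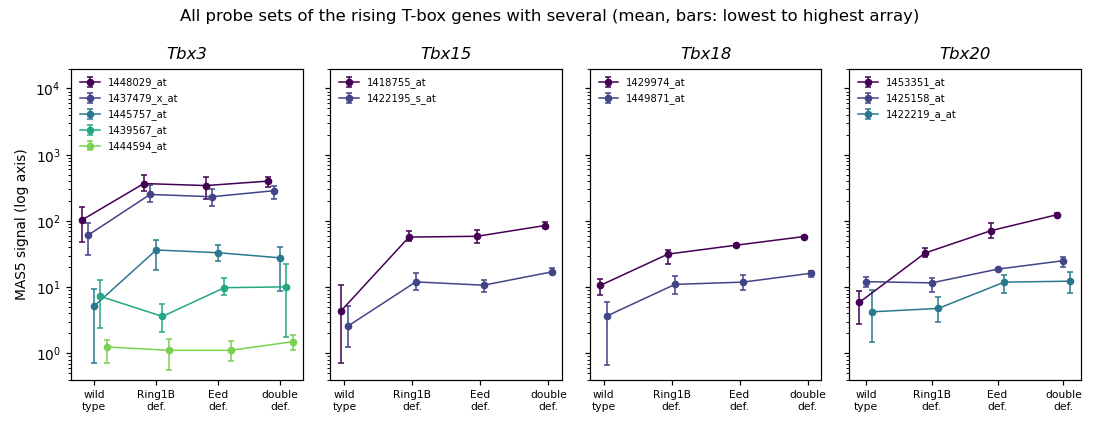
MAS5 signal (log axis) of every probe set of Tbx3, Tbx15, Tbx18 and Tbx20 by genotype; points are means of 3 arrays and bars run from the lowest to the highest array. For Tbx20, 1453351_at climbs from 5.87 to 124 while 1425158_at goes from 12.1 to 25.1.

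Markers of primitive and visceral endoderm and of trophoblast were higher in the same genotypes as the 5 T-box genes. Among all genes tested, 4.68%, 10.8% and 19.5% were called higher on loss of Ring1B, of Eed and of both. Called lower were 2.5%, 4.56% and 11.4%. Sox7 and Foxa2 of the endoderm markers exceeded the filter percentile on 0 wild type arrays, so they passed through the mutants alone. Of 19 tested markers of primitive and visceral endoderm, 15 were called higher on loss of Ring1B, 17 on loss of Eed and 16 on loss of both. Their summed signal ran from 1372 to 1699 in wild type, 6055 to 8352 on loss of Ring1B, 8953 to 12832 on loss of Eed and 12836 to 15584 on loss of both. Of 11 trophoblast markers, 5, 9 and 9 were higher, with sums of 770 to 1508, 1632 to 3144, 3807 to 6364 and 5031 to 8116. Of 20 fibroblast and feeder cell markers, 0, 6 and 15 were higher, with sums of 3309 to 3524, 2148 to 3074, 4161 to 8597 and 8631 to 9561; the highest of the Eed deficient sums was that of replicate 3. Of 10 cardiomyocyte markers, 1, 2 and 1 were higher, with sums of 192 to 237, 193 to 285, 286 to 370.3 and 352 to 499. Of 5 neural progenitor markers, 1, 2 and 2 were higher and 1 lower in each, with sums of 180.2 to 359, 256 to 366, 219 to 245 and 374 to 403.

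The summed fibroblast markers were lower on all Ring1B deficient arrays than on any wild type array. Without Eed deficient replicate 3, the changes of Tbx1, Tbx3, Tbx15, Tbx18 and Tbx20 in Eed deficient cells were 1.86, 1.69, 2.74, 1.63 and 2.86, all still called (limma adjusted p from 4.4e-05 to 0.026). The part of fibroblast, endoderm and trophoblast markers in the T-box changes was not tested.

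Of the other T-box family genes, 3 of 7 listed were tested. Eomes, which acts in trophoblast and early endoderm, averaged 31.9 ± 3.68 in wild type cells, 82.4 ± 21.4 on loss of Ring1B, 80.5 ± 18.3 on loss of Eed and 90.9 ± 23.2 on loss of both. Its log2 change was 1.22, 1.2 and 1.36 (limma adjusted p = 0.0049, 0.0029 and 0.00057). Mga, a T-box protein that pairs with Max, fell by 0.43 in Eed deficient cells (0.038) and by 0.48 in double deficient cells (0.013). The Eed call was lost without wild type replicate 1 or 3 or any 1 Eed deficient or double deficient array, and the other when replicate 3 of either wild type or double deficient cells was left out. Tbx19, a pituitary regulator, was not called, at 0.05, -0.15 and 0.50.

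T-box proteins work with corepressors and with cardiac and endodermal factors. Of 19 tested partners, 4 were higher on loss of Ring1B, 4 on loss of Eed and 6 on loss of both, and 0, 0 and 2 were lower. The shares of all genes tested were 4.68%, 10.8% and 19.5% higher and 2.5%, 4.56% and 11.4% lower. The lower count of 2 became 0 with the first wild type array or replicate 3 of the double deficient arrays left out and 1 without double deficient replicate 1 or 2, and the 3 lower counts were 3, 5 and 4 with the replicate block. Centring arrays on their medians gave 4 lower in double deficient cells. The median change was 0.03, 0.08 and 0.18, beside -0.01, 0.03 and 0.10 over all genes tested. Ripply3, a corepressor that binds Tbx1, averaged 8.94 ± 4.55 in wild type cells, 49.9 ± 3.95 on loss of Ring1B, 39.7 ± 6.45 on loss of Eed and 53.6 ± 3.1 on loss of both. Gata6, a partner in heart tissue that is also an endoderm marker, went from 22.6 ± 4.14 to 127 ± 22.8, 153 ± 23.8 and 293 ± 18.9. Isl1, a factor of the second heart field, rose by 0.87 in Ring1B deficient (limma adjusted p = 0.034) and 0.90 in Eed deficient cells (0.017). Nkx2-5, the cardiac partner of Tbx5 and Tbx20, had mean signals of 19.8, 22.7, 28.9 and 34.2 in the 4 genotypes and was not called.

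Among heart field and cardiac genes, 5 of 23 tested were higher on loss of Ring1B, 7 on loss of Eed and 9 on loss of both. Beside them stood 4.68%, 10.8% and 19.5% of all genes. In each mutant 0 were lower, beside 2.5%, 4.56% and 11.4% of all genes. Hand2, Tnnt2 and Tcf21 exceeded the filter percentile on 0 wild type arrays and so passed through the mutants alone, which limits what counts and median show. The median change was 0.13, 0.46 and 0.74. Hand2, a factor of heart and limb, averaged 2.74 ± 2.15 in wild type and 13.3 ± 1.41, 22.3 ± 4.95 and 38.5 ± 4.26 in the mutants. Nppb, a natriuretic peptide gene, went from 28.2 ± 5.36 to 54.2 ± 3.44, 132 ± 12.2 and 155 ± 8.07. The count in double deficient cells was 5 without double deficient replicate 2 or 3.

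Of 26 limb bud genes tested, 12 were higher on loss of Ring1B, 15 on loss of Eed and 19 on loss of both, and 0 were lower. All genes tested gave 4.68%, 10.8% and 19.5% higher and 2.5%, 4.56% and 11.4% lower. Meis1, Alx1, En1, Hoxd10, Hoxd11, Hoxa13 and Hand2 exceeded the filter percentile on 0 wild type arrays. They passed through the mutants alone, so the counts and median of this list are not evidence of a rise. Leaving out single arrays gave 10 to 13, 13 to 15 and 17 to 20. Their median change was 0.88, 0.99 and 1.64. The list holds Hox genes, which pattern the body axis as well as the limb. Hoxd10 averaged 2.69 ± 4.03 in wild type and 48.2 ± 7.02, 38.9 ± 4.17 and 65.9 ± 17.5 in the mutants. Msx2, a homeobox gene of limb and skull, averaged 10.3 ± 7.67 and then 26.8 ± 1.98, 56 ± 16.5 and 88.1 ± 8.44. The limb regulators Tbx4 and Tbx5 were not called in the same cells.

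For presomitic and somitic mesoderm, the setting of Tbx6 and Tbx18, 5, 7 and 12 of 23 genes were higher and 1 was lower in each mutant, with median changes of 0.26, 0.46 and 0.81. Shares over all genes were 4.68%, 10.8% and 19.5% higher and 2.5%, 4.56% and 11.4% lower. Foxc2, Aldh1a2, Pax1, Rspo3 and Evx1 exceeded the filter percentile on 0 wild type arrays and so passed through the mutants alone, which limits what counts and medians show. The Ring1B count was 3 without wild type replicate 1 or any 1 Ring1B deficient array, and the Eed count was 4 without Eed deficient replicate 3. A filter at the 60th percentile, which leaves out genes of low signal, gave 2, 2 and 4 higher. The lower count was 0 in every mutant without wild type replicate 1 or 3. It was also 0 on loss of Ring1B without replicate 1 or 2 of that genotype, on loss of Eed without its replicate 3, and on loss of both without its replicate 1 or 2. Cyp26a1, which degrades retinoic acid, averaged 12.5 ± 1.66 in wild type and 65.2 ± 12, 212 ± 11.7 and 303 ± 14.3 in the mutants. Cdx2, a posterior axis and trophoblast factor, rose by 1.36, 1.59 and 1.92 (limma adjusted p = 0.029, 0.007 and 0.00097).

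Of 14 pharyngeal arch and otic genes, the setting of Tbx1, 4, 5 and 8 were higher and 0 lower, with medians of 0.22, 0.34 and 0.98. Over all genes 4.68%, 10.8% and 19.5% were higher and 2.5%, 4.56% and 11.4% lower. Foxc2, Aldh1a2, Dlx2 and Dlx5 exceeded the filter percentile on 0 wild type arrays and so passed through the mutants alone, which limits what counts and medians show. Foxc2, a forkhead factor of arch and somite mesoderm, averaged 4.55 ± 5.45 in wild type and 19.8 ± 2.23, 20.5 ± 3.94 and 31.3 ± 2.98 in the mutants. The counts were 2 in Ring1B deficient cells without Ring1B deficient replicate 1, 3 in Eed deficient cells without wild type replicate 1, and 5 in double deficient cells with the first wild type array or replicate 3 of the double deficient arrays left out. With the filter at the 60th percentile, which leaves out genes of low signal, they were 0, 0 and 2.

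Of 17 mesenchyme and ureter genes linked to Tbx18 and Tbx15, 5, 9 and 11 were higher and 3 lower in each mutant, with medians of 0.33, 0.8 and 1.2. For all genes the shares were 4.68%, 10.8% and 19.5% higher and 2.5%, 4.56% and 11.4% lower. Foxd1, Foxc2, Aldh1a2 and Smoc2 exceeded the filter percentile on 0 wild type arrays and so passed through the mutants alone, which limits what counts and medians show. Foxd1, a factor of kidney stroma, averaged 3.51 ± 0.835 in wild type and 25.5 ± 10.4, 25.1 ± 8 and 56.1 ± 21 in the mutants. The Hedgehog receptor gene Ptch1 went the other way, from 649.6 ± 250.4 to 227 ± 76.2, 253 ± 93.7 and 169 ± 29.6. Without Eed deficient replicate 3 the Eed count of higher genes was 5. Filtering at the 60th percentile gave 3 higher in Ring1B deficient and 6 in double deficient cells. The lower count was 1 in both single mutants without wild type replicate 1, in Ring1B deficient cells without wild type replicate 3 or their own replicate 2, and in Eed deficient cells without their replicate 3. Acta2, Tagln and Pdgfrb of this list are also fibroblast markers, and Pdgfra is also an endoderm marker.

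Tbx2 and Tbx3 repress cell cycle inhibitors, so genes of growth control were followed as well. Of 13 tested, 3, 5 and 7 were higher and 2, 1 and 0 lower, with medians of 0.18, 0.52 and 0.46. All genes gave shares of 4.68%, 10.8% and 19.5% higher and 2.5%, 4.56% and 11.4% lower. Cdkn2a, which encodes the p16 and p19 inhibitors, averaged 16 ± 7.74 in wild type cells, 42.3 ± 9.32 on loss of Ring1B, 53.4 ± 9.53 on loss of Eed and 68.5 ± 2.13 on loss of both, where Tbx3 was higher too. The double deficient count was 4 without wild type replicate 3 and 3 without any 1 double deficient array, and the Eed count was 3 without Eed deficient replicate 1. Centring arrays on their median also gave 3 in double deficient cells. The lower count was 0 in both single mutants when wild type replicate 3 was left out or replicate 1 of the double deficient arrays, and 0 or 1 in at least 1 of them without most of the other arrays.

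Of 22 naive pluripotency genes, the network in which Tbx3 acts, 2, 1 and 0 were higher and 2, 2 and 6 lower, with medians of -0.06, -0.14 and -0.32. Across all genes 4.68%, 10.8% and 19.5% were higher and 2.5%, 4.56% and 11.4% lower. Tfcp2l1, a self-renewal factor, rose by 0.89 in Ring1B deficient (limma adjusted p = 0.013) and 1.00 in Eed deficient cells (0.0034). Nanog fell by 0.80 in double deficient cells (0.00041) while Tbx3 was 2.03 higher there. With the replicate block 6 were lower in each single mutant. The lower count was 1 in both single mutants without wild type replicate 2 or 3, in Ring1B deficient cells without their replicate 1 or 3, and in Eed deficient cells without their replicate 2 or 3; it was 4 in the latter without replicate 1. The Ring1B count of higher genes was 0 without Ring1B deficient replicate 2 and 1 without wild type replicate 2 or 3, Ring1B deficient replicate 3 or double deficient replicate 3.

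**Figure D4:**
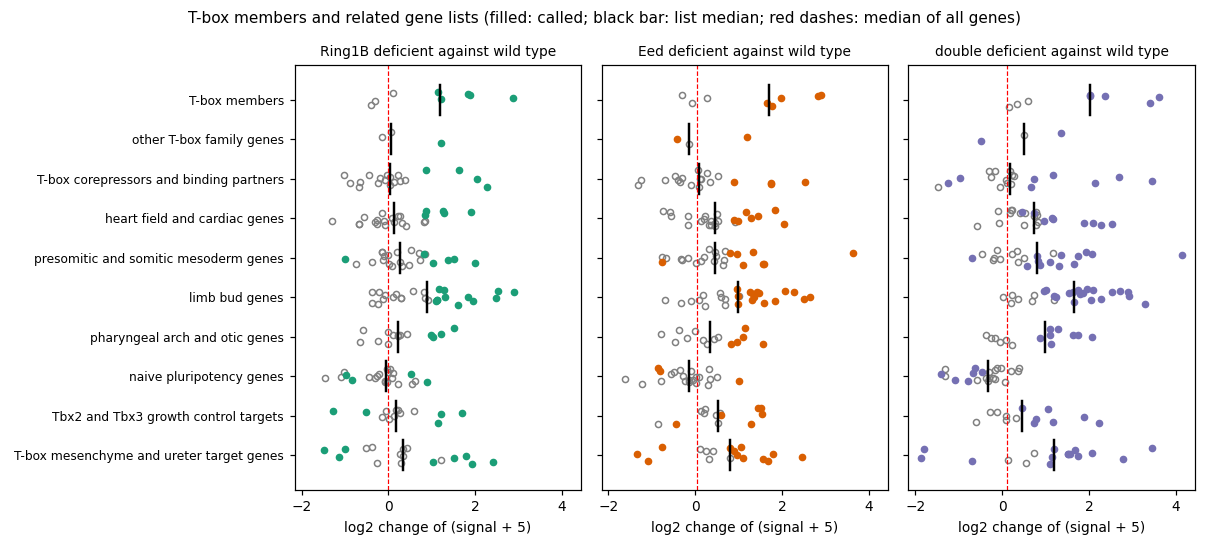
Log2 change of (signal + 5) against wild type of each tested gene, by list and mutant; filled points were called, black bars mark list medians and red dashes the median of all genes. The T-box members have medians of 1.18, 1.70 and 2.03, and limb bud genes 0.88, 0.99 and 1.64. Of the tested members 4 passed the filter through the mutants alone, as did list genes such as Hoxd10, Foxc2 and Foxd1.

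Genes beside the members on the chromosome were compared next. The 28 nearest protein-coding genes that are not members were taken from the RefSeq table, up to 2 on each side. Of these, 27 were on the array and 21 tested. In Ring1B deficient cells 0 were called by limma in either direction, beside 4.68% of all genes higher and 2.5% lower. In Eed deficient cells 2 were higher, beside 10.8% of all genes, and 2 lower, beside 4.56%. In double deficient cells 3 were higher, beside 19.5%, and 5 lower, beside 11.4%. Their median changes were -0.16, -0.18 and -0.08. Tbx3 and Tbx5 lie next to each other, as do Tbx2 and Tbx4. Tbx3 was called in every mutant while Tbx5 beside it was not. Their intervals were apart in Ring1B deficient cells, up to 0.91 for Tbx5 and from 1.1 for Tbx3. In Eed deficient and double deficient cells the intervals overlapped, that of Tbx5 reaching 1.16 and 1.82, so a lesser change of Tbx5 is not shown there.

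The neighbours called higher were Nt5e and Snx14 beside Tbx18 and Cypt4 beside Tbx20. Nt5e, the gene of an ecto-nucleotidase, averaged 9.24 ± 1.92 in wild type, 16.1 ± 2.66 on loss of Ring1B, 33.6 ± 7.79 on loss of Eed and 75.4 ± 18.3 on loss of both. It rose by 1.43 in Eed deficient (limma adjusted p = 0.00076) and 2.48 in double deficient cells (3.7e-06), and differed by 0.57 in Ring1B deficient cells (0.15). Snx14, the next gene, rose by 0.53 (0.025) and 0.79 (0.0013) in the same mutants. Cypt4 rose by 0.77 in double deficient cells (0.017). Bcas3 beside Tbx2 fell by 1.3 in Eed deficient cells (0.006) and by 1.11 in double deficient cells (0.0078). Ints2 near Tbx4 changed by -0.53 (limma adjusted p = 0.048) and -0.48 (0.044) in the same mutants. In double deficient cells Aldoa near Tbx6 (-0.68, 0.0079), Gnb1l near Tbx1 (-0.63, 0.032) and Med13l near Tbx3 (-0.5, 0.041) were also called lower.

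**Figure D5:**
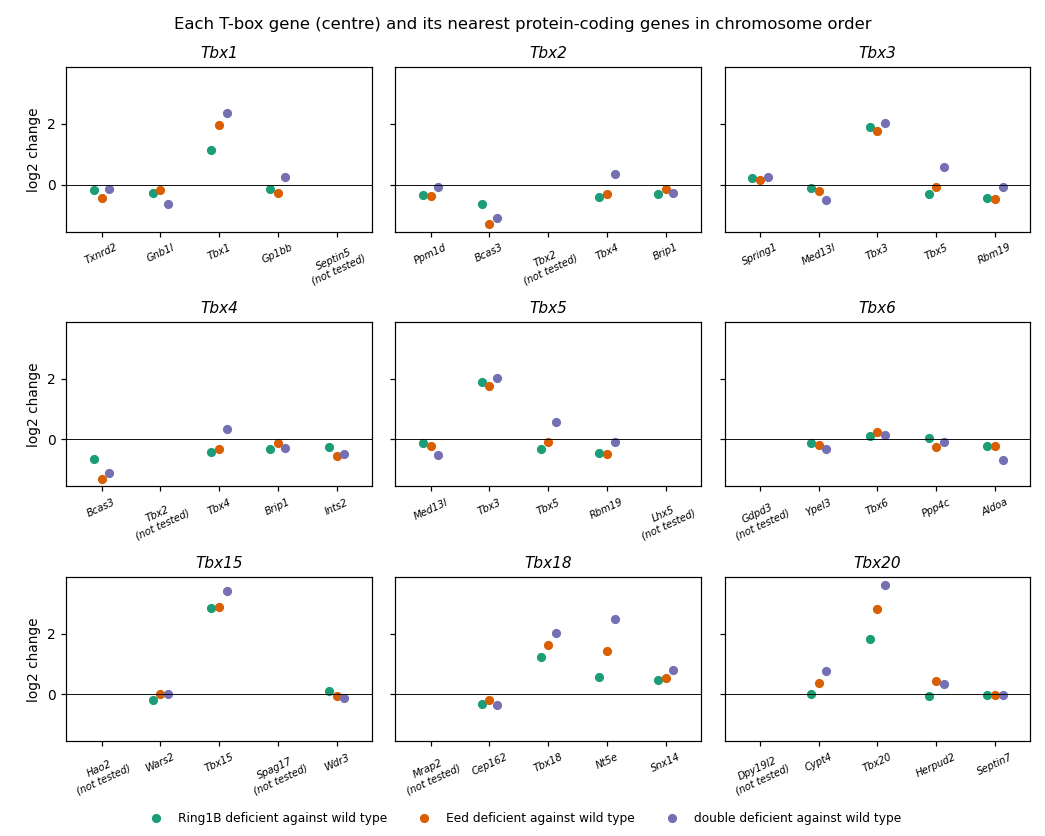
Log2 change against wild type of each T-box gene and its nearest protein-coding genes in chromosome order, for the 3 mutants. Tbx3 lies at 1.76 to 2.03 with Tbx5 beside it between -0.31 and 0.59, and Nt5e beside Tbx18 reaches 2.48.

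The profiles of the members over the 12 arrays were compared by Pearson's r of log2 values, as a description. The arrays share their grouping into 4 genotypes, so any genes that differ between genotypes in the same order correlate. Tbx18 had r of 0.965 with Tbx1, 0.955 with Tbx20 and 0.942 with Tbx15. Tbx3 had lower values with these 4, from 0.721 to 0.805. Tbx4 and Tbx5 had r of 0.676 with each other. Among all genes tested, the profiles most like Tbx15 were those of Hoxd9 (0.985), Lhx2 (0.973) and Hoxd8 (0.97), and those most like Tbx20 were Tdrd5 (0.988), Epas1 (0.982) and Dsg2 (0.981). Ubash3b (0.987), Pga5 (0.986) and Hmx1 (0.982) were nearest to Tbx18. Bahd1 (0.981), Pga5 (0.974) and Chst11 (0.97) were nearest to Tbx1. The best values for Tbx3 were lower, with Klk10 and Arfgap2 at 0.948 and Hrh1 at 0.947. For Tbx4, Tbx5 and Tbx6 they were Plekhn1 at 0.908, Lmx1b at 0.869 and Gbgt1 at 0.847.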

How the data were processed

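RNA of 12 mouse ES cell samples was hybridized to 1 array each. Per the submitters' processing notes, the authors made the deposited intensity values with MAS5, whose version and scaling target are unstated in the labels and files. On this linear scale each array's trimmed mean (2% left off at each end) was 100. No further normalization was applied.

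Of 45101 probe sets, 64 controls were left out, and genes were named from 34945 probe sets with 1 symbol in the platform annotation. Another 932 probe sets with several symbols were not used. Of the named probe sets, 34741 had an Entrez identifier in a RefSeq table (GRCm38.p6), which changed 0 symbols. Log2 of (signal + 5) was fitted with limma 3.58.1 in R 4.3.3, with 1 mean per genotype, an intensity trend and Benjamini-Hochberg adjustment over 13984 genes. For each gene the brightest probe set above the filter was used, judged over wild type and mutant arrays together. A second fit covered 30027 probe sets and another fit 18193 genes without the filter. The scripts were tested on simulated data.

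The members, gene lists and tests were chosen with earlier results of these data known. Named genes are every member, the tested other T-box genes, up to 4 called genes of each list and mutant by size, the nearest neighbours and the 3 most like profiles of each member. Uncalled list genes are given by value. Quantile normalization, median centring, added values of 1 and 20, no filter and a filter at the 60th percentile, the mean of a gene's probe sets, no trend, a replicate block, a fit of only the arrays compared, and leaving out each array were tried. Tbx10 was not analysed here.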

Additional observations from a re-analysis of the deposited data

Results flagged for a closer look

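The interaction of Tbx15 was singled out because the change on loss of Ring1B differed between the wild type and the Eed deficient background by a test of that difference. The interaction was -2.34 on the log2 scale (SE 0.44, limma adjusted p = 0.016). It was -0.69 for the dimmer Tbx15 probe set (adjusted p = 0.46). Tbx15 was 2.86 higher in Ring1B deficient than in wild type cells, with all 3 arrays higher, as for 11.9% of genes tested. It was 0.52 higher in double deficient than in Eed deficient cells, again with all 3 arrays higher, as for 15.4%. With 3 arrays per genotype, no array was tested as standing apart from its group.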

How the results depend on the processing

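The 5 rises against wild type kept their direction in all 23 alternatives that could test them; the number called was 4 or 5 in each mutant, and Tbx1 could not be tested with the filter at the 60th percentile. Tbx1 in Ring1B deficient cells ranged from 0.54 (added value of 20, adjusted p = 0.0821) to 1.73 and was called in 14 of 22 alternatives. It also missed the threshold with only the arrays compared (0.12) and without the arrays numbered 2 (0.0706). Between double deficient and Eed deficient cells 1 member was called higher with an added value of 20 and with the replicate block. Between Eed deficient and Ring1B deficient cells 0 were called with quantile normalization, an added value of 1, only the arrays compared, and without the arrays numbered 2, and 0 to 2 with single arrays left out. Between double deficient and Ring1B deficient cells leaving out single arrays gave 1 to 4. For the interaction they gave 0 to 2 lower. The replicate block gave 3 members with a lower interaction: Tbx15 (0.002), Tbx3 (-1.61, 0.0044) and Tbx20 (-1.04, 0.041). The labels do not pair the samples by number, so the main fit has no block. Of 18 same-numbered pairs, 13 had a correlation of deviations over 0.1. Correlations ran from 0.164 to 0.431 among arrays numbered 1 and from 0.265 to 0.614 among those numbered 2. Among those numbered 3 they ran from -0.048 to 0.179. Pairs of different numbers ran from -0.485 to 0.194, and 9 of 12 arrays correlated best with their own number. Arrays numbered 1, and those numbered 2, thus varied together across genotypes, which the main fit leaves in its error. The replicate block changed no other count of members by over 1.5 times. With arrays centred on their medians, 12.1% of genes were called higher and 22.5% lower in double deficient cells, beside 19.5% and 11.4%. Sign changes occurred only for values called in neither setting. Quantile normalization gave Tbx6 -0.11 against wild type and -0.21 against Ring1B in double deficient cells, and Tbx15 -0.05 between the single mutants. Median centring gave -0.10, -0.21 and -0.05 for the same, and -0.10 for Tbx3 between double and Ring1B deficient cells. An added value of 1 gave Tbx5 0.05 in Eed deficient cells. The mean of probe sets gave 0.12 for Tbx3 and -0.04 for Tbx15 between the single mutants. Leaving out the arrays numbered 2 gave 0.01 and -0.04 there and 0.10 for Tbx5 in Eed deficient cells. Leaving out single arrays, Tbx6 ranged from -0.11 to 0.27 in Ring1B deficient and -0.15 to 0.35 in double deficient cells, and Tbx5 from -1 to 0.20, -0.75 to 0.39 and -0.09 to 1.05 in the 3 mutants. Between Eed and Ring1B deficient cells the ranges were -0.36 to 0.18 for Tbx3, -0.20 to 0.35 for Tbx4, -0.27 to 0.68 for Tbx5, -0.01 to 0.30 for Tbx6 and -0.12 to 0.19 for Tbx15. Between double and Ring1B deficient cells they were -0.02 to 0.39 for Tbx3 and -0.26 to 0.23 for Tbx6, and between double and Eed deficient cells -0.03 to 0.51 and -0.41 to 0.09. The Tbx6 interaction ranged from -0.52 to 0.01. In all, 154 counts of called list genes moved by over 1.5 times. The causes were not tested. Signals near the background limit Tbx2, Tbx5 and Tbx6.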
